A study of Mus musculus with 8 samples.

Results

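Chemokine receptors are described here across the iron positive and iron negative cell fractions of a mouse tumor. The 9 genes were listed by symbol, as receptors of myeloid cells (Ccr1, Ccr2, Ccr3, Ccrl2, Cx3cr1 and Cxcr4), a receptor of lymphoid cells (Cxcr6) and receptors that bind chemokines without the usual signalling (Ackr2 and Ackr3). Transcripts were mapped to gene symbols and summed, which gave these 9 of 35975 genes. Of the 9, 7 had enough counts to be tested, and Cxcr6 and Ackr2 did not.

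The tumors were syngeneic fibrosarcomas, injected under the skin of C57BL/6 mice of wild-type genotype. Each digest, made with collagenase B and DNase I and cleared of red cells by lysis, was passed over magnetic columns. Cells retained by the column and then eluted were the iron positive fraction (4 libraries), and cells in the flowthrough were the iron negative fraction (4 libraries). The tags 3L, 3R, 4R and 5L each occurred once in both fractions, and total RNA was sequenced in bulk. Both fractions therefore share the mouse strain, the tumor and the digest, and no tissue without tumor was analysed here. The labels name no antibody sort, name no tumor line, and leave unstated whether each tag is an animal of its own. The p-values accordingly measure the spread between these libraries, which may be technical. In bulk RNA, fewer cells of a type and less RNA per cell cannot be told apart.

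Chemokine receptors are membrane-spanning proteins that couple mostly to the inhibitory G protein Gi, and they steer cells up gradients of small secreted chemokines. Ccr2 brings monocytes out of the bone marrow and into inflamed tissue and tumors, and Cx3cr1 marks non-classical monocytes and many macrophages. The atypical receptors take up chemokines and remove them, without Gi signalling.

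Estimated counts totalled 19.04 to 22.59 M in iron positive libraries and 20.6 to 24.31 M in iron negative libraries. Levels below are library-scaled CPM (counts over the library size, with factors from the trimmed mean of M values, TMM), unless TPM, which also corrects for transcript length, is named. All 12 macrophage markers of a list (Csf1r, Adgre1, Lyz2, C1qa and others) were measured in both fractions, with summed levels of 21215 to 28506 CPM in iron positive libraries and 28269 to 31358 CPM in iron negative libraries. Markers of endothelial cells summed to 172.6 to 1428 CPM in iron positive libraries, against 35.3 to 69.9 CPM in iron negative libraries, and markers of fibroblasts and fibrosarcoma to 1089 to 5814 CPM in iron positive libraries, against 500.3 to 787.4 CPM in iron negative libraries. Both fractions were rich in macrophage RNA, and vascular and stromal genes took a larger share of the RNA in the iron positive one.

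Of the 9 genes, 7 lie on chromosome 9 and Ackr3 and Cxcr4 lie on chromosome 1. In mm10 coordinates, Ccr1 (chr9:123962124-123968692, minus strand), Ccr3 (chr9:124021972-124031689, plus strand) and Ccr2 (chr9:124101950-124113557, plus strand) are neighbours among the listed genes. Ccr1 ends 53.3 kb before Ccr3, and Ccr3 ends 70.3 kb before Ccr2. Cxcr6 lies 150.4 kb before Ccr1. Cx3cr1 (chr9:119901616-120069879, minus strand) and Ackr3 (chr1:90203980-90216751, plus strand) lie apart from them. The promoters of the 5 receptors whose levels changed between the fractions are printed because neighbours in this cluster moved in opposite directions, while Ccr2 and Cx3cr1, which lie far apart, moved together. The sequences are from RefSeq (GRCm38.p6, the same assembly as mm10) and run 5′ to 3′ on the gene's strand, with 250 bases before the annotated start and 50 after it. Capitals mark matches on either strand to 5 motifs: GAGGAA (the ETS core bound by PU.1), TGANTCA (AP-1), ACGTG (the core of hypoxia response elements), TATAAA (the box found upstream of many sharply defined starts) and CCGCCC (the GC box).
Ackr3 promoter, chr1:90203730-90204029, plus strand: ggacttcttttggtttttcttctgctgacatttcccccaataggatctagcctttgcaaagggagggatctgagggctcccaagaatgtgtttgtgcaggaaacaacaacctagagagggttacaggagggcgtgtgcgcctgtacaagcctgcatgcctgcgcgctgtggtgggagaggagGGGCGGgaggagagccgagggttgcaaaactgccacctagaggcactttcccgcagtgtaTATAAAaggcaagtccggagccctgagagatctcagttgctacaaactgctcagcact
Ccr3 promoter, chr9:124021721-124022020, plus strand: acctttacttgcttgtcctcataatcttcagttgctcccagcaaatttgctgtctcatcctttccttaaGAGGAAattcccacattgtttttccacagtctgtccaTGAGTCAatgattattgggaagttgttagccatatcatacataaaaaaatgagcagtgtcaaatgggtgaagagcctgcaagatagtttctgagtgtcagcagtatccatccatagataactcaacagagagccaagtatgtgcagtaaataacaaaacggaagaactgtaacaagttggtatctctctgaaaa
Ccr2 promoter, chr9:124101933-124102232, plus strand: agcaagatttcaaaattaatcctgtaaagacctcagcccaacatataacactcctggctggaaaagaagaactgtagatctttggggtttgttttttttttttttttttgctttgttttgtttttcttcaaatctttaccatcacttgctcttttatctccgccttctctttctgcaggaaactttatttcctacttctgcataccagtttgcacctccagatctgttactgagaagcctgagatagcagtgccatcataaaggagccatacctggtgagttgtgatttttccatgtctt
Cx3cr1 promoter, chr9:120068247-120068546, minus strand: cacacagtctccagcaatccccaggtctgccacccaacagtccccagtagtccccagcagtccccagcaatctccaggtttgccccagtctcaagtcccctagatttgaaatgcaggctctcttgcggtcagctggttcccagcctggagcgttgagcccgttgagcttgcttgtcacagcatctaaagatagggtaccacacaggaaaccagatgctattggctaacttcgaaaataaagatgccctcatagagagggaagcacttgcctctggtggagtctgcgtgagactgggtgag
Ccr1 promoter, chr9:123968643-123968942, minus strand: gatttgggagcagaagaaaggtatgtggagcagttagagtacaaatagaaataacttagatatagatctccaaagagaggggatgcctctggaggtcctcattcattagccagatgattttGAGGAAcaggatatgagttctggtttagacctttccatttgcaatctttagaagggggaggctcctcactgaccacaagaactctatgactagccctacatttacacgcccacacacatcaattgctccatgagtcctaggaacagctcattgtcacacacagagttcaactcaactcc
The Ackr3 window holds 1 TATAAA and 1 GC box, the Ccr3 window 1 GAGGAA and 1 AP-1 motif, and the Ccr1 window 1 GAGGAA. The Ccr2 and Cx3cr1 windows hold none of the 5. Their RefSeq starts lie inside the gene spans printed above. The Cx3cr1 window therefore falls wholly, and the Ccr2 window mostly, within its gene span. The lack of matches does not describe the bases before those spans. Among 32851 promoters of the same length, 28.3% hold GAGGAA, 7.8% TGANTCA, 19.6% ACGTG, 13.6% TATAAA and 35.7% CCGCCC. All but the AP-1 motif are thus frequent in such windows, and a match is only a description of these bases.

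In the iron positive fraction, the chemokine-scavenging receptor Ackr3 and the eotaxin receptor Ccr3 were higher, and the monocyte and macrophage receptors Ccr2, Cx3cr1 and Ccr1 were lower. Ackr3 was 17.8-fold and Ccr3 4.92-fold higher, both from low levels. Ccr2, Cx3cr1 and Ccr1 were 1.85-fold, 1.68-fold and 1.25-fold lower, at levels far above those of Ackr3 and Ccr3. Thus 2 of the 7 receptors tested rose, where 8.49% of 13343 genes did, and 3 fell, where 5.21% did (edgeR quasi-likelihood F-test, with p adjusted over all genes and under 0.05). The same 5 receptors had groups of libraries that did not overlap. Over all genes the groups did not overlap in 11.2% towards higher and 10.3% towards lower levels in iron positive libraries. The median log2 fold change (iron positive minus iron negative) of the 7 was -0.35, against -0.006 over all genes tested.

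Within each fraction the receptors differed widely in level. Per transcript length, Cxcr4 was the most abundant in iron positive libraries at 477.8 ± 138.6 TPM (SD, n = 4 here and below), followed by Ccrl2 at 346.9 ± 108.4, Cx3cr1 at 272.2 ± 69.0 and Ccr1 at 143.8 ± 11.8 TPM. Ccr2 had 29.6 to 50.6 TPM there, with a mean of 42.6. Ackr3 followed at 8.25 ± 6.85, Ccr3 at 1.14 ± 0.81, Ackr2 at 0.79 ± 0.87 and Cxcr6 at 0.17 ± 0.06 TPM. In iron negative libraries the first 5 kept this order, with Cxcr4 at 593.8 ± 223.1, Ccrl2 at 525.4 ± 109.6, Cx3cr1 at 441.9 ± 29.1, Ccr1 at 173.9 ± 6.15 and Ccr2 at 77.2 ± 7.5 TPM. Ackr3, Cxcr6, Ccr3 and Ackr2 all averaged at most 0.4 TPM there. In both fractions the libraries of Cxcr4 and Ccrl2 overlapped, and so did those of Ccrl2 and Cx3cr1. Cx3cr1, Ccr1, Ccr2 and Ackr3 were separated from one another in every library. From Ackr3 down, neighbours in the order overlapped, except Ackr3 and Ccr3 in the iron positive fraction and Ccr3 and Ackr2 in the iron negative one. TPM of weakly expressed genes rested partly on short transcripts. Of the Ackr2 TPM in iron positive libraries, 76.2% came from a transcript of 345 bases that held 1.5 and 2.5 estimated counts in 2 libraries.

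**Figure D1:**
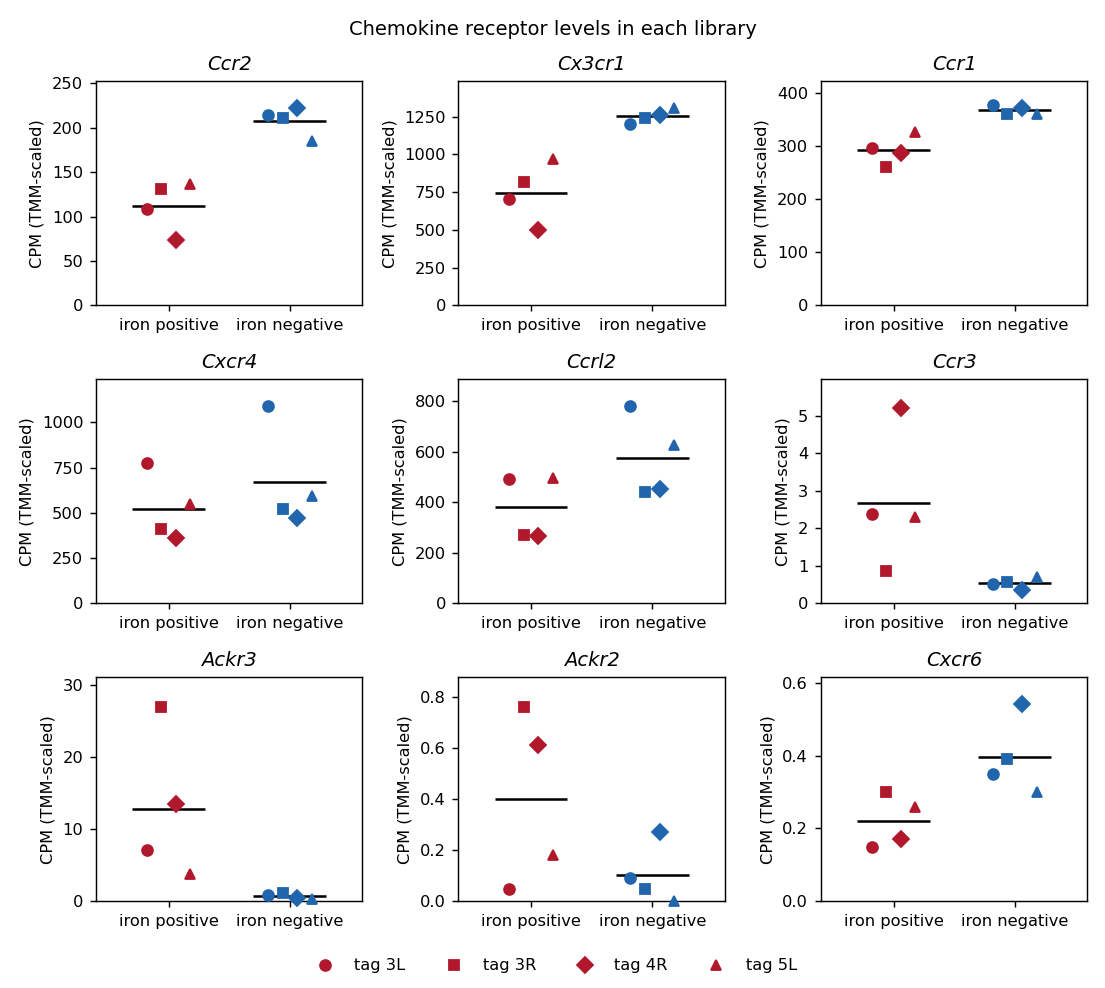
Each panel plots 1 receptor, with TMM-scaled CPM on the vertical axis from 0 and the iron positive libraries (red) left of the iron negative ones (blue). Symbols mark the tag and lines the group mean. The groups do not overlap for Ccr2, Cx3cr1, Ccr1, Ccr3 and Ackr3.

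Ccr2, the receptor for Ccl2 that monocytes need to leave the bone marrow, was lower in the iron positive fraction. It had 108.6 (3L), 130.7 (3R), 73.9 (4R) and 136.5 (5L) CPM in iron positive libraries, against 213.7, 210.9, 222.1 and 184.9 CPM in iron negative libraries of the same tags. Every iron positive library lay below every iron negative one, and tag 4R had the lowest iron positive and the highest iron negative value. The log2 fold change was -0.89 ± 0.18 (SE), with edgeR adjusted p = 0.0198. All 4 annotated Ccr2 transcripts contributed in similar shares to both fractions. Transcript Ccr2-202 made up 48.5% of Ccr2 TPM in iron positive and 46.4% in iron negative libraries.

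Cx3cr1, the receptor for the membrane-bound chemokine Cx3cl1, was the most strongly expressed of the receptors that changed. It had 702.3 (3L), 814.5 (3R), 502.5 (4R) and 971.0 (5L) CPM in iron positive libraries, against 1199, 1242, 1262 and 1310 CPM in iron negative libraries. The iron negative values lay within a narrow band, while the iron positive ones spread widely below it, again with 4R lowest. The log2 fold change was -0.75 ± 0.18 (edgeR adjusted p = 0.0301). Without iron positive 3L the adjusted p was 0.0539. Around the fraction means, Cx3cr1 and Ccr2 varied together (r = 0.91 over 8 libraries, which share tags and scaling). This value rests mostly on the iron positive libraries, where the SD of log2 CPM was 0.40 for both genes. Within iron negative libraries it was 0.11 for Ccr2 and 0.05 for Cx3cr1. There the 2 genes did not vary together, since 5L had the lowest Ccr2 and the highest Cx3cr1.

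Ccr1, a receptor for several CC chemokines including Ccl3, Ccl5, Ccl6, Ccl7 and Ccl9, had a small decrease. It had 296.6 (3L), 260.8 (3R), 286.7 (4R) and 326.1 (5L) CPM in iron positive libraries, against 377.4, 359.2, 370.2 and 358.7 CPM in iron negative libraries. The groups did not overlap, and the SD was 27.0 CPM in iron positive and 9.05 CPM in iron negative libraries. The log2 fold change was -0.32 ± 0.07 (edgeR adjusted p = 0.0277). The adjusted p was 0.0725 without iron positive 4R.

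Some macrophage marker genes fell as well. Of the 12 markers, 5 fell, where 5.21% of all genes did, and the other 7 did not pass. The median log2 fold change was -0.34. With the tag as a block, 9 fell, where 9.39% of all genes did. Csf1r, the receptor for the macrophage growth factor, changed by -0.61 (edgeR adjusted p = 0.0177), the largest fall of the 12. The estimates for Ccr2 (-0.89 ± 0.18) and Cx3cr1 (-0.75 ± 0.18) were larger decreases than that of Csf1r (SE 0.11). The decrease of Ccr1 was near the list's median. No receptor was compared with a marker by a test, and Cx3cr1 and Csf1r overlap within their errors. Monocyte markers did not share one direction. Of 8, the genes Vcan (2.18) and Ace (3.65) were higher and Ms4a4c (-0.71) lower, and the median over the list was 1.04 (log2 fold change). None of the other monocyte markers passed. The summed level was 105.8 to 254.7 CPM in iron positive and 99.9 to 111.8 CPM in iron negative libraries. The highest sum, in iron positive 3R, was mostly Ace (119.5 CPM) and Vcan (46.1 CPM). That library also had the highest endothelial and fibroblast sums. The part of monocytes in these results was not tested. When libraries were scaled to the summed counts of the macrophage list, the median of all genes moved by 0.211 log2 units, to 0.205. The largest part of that sum was Lyz2, averaging 10712 CPM in iron positive and 9951 CPM in iron negative libraries. Lyz2 itself had a log2 fold change of 0.11 with TMM scaling (edgeR adjusted p = 0.67). Csf1r had -0.40 under macrophage scaling (edgeR adjusted p = 0.0539). Under macrophage scaling the receptors had log2 fold changes of -0.67 ± 0.21 for Ccr2, -0.53 ± 0.19 for Cx3cr1 and -0.12 ± 0.08 for Ccr1. Their edgeR adjusted p were 0.0667, 0.104 and 0.349. None of the 3 then passed, and of all genes 0.135% were lower and 10.8% higher at an adjusted p under 0.05. At an unadjusted p under 0.05, 2 of the 7 receptors and 196 of all 13343 genes were lower. With the tag as a block in the same scaling, an alternative chosen after seeing the data, Ccr2 (-0.72, adjusted p = 0.0162) and Cx3cr1 (-0.58, adjusted p = 0.0222) passed and Ccr1 (-0.13, adjusted p = 0.297) did not. In that fit 1.24% of all genes were lower and 21.0% higher. Relative to the macrophage sum, in which Lyz2 weighs most, Ccr2 and Cx3cr1 were therefore lower in the fit that pairs tags. No difference of Ccr1 was detectable there.

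Cxcr4, the receptor for Cxcl12, and Ccrl2, which binds chemerin without signalling and presents it to neighbouring cells, varied with the tag in both fractions. Cxcr4 had 774.7 (3L), 410.5 (3R), 363.3 (4R) and 547.7 (5L) CPM in iron positive libraries, against 1091, 519.1, 472.6 and 595.7 CPM in iron negative libraries. Ccrl2 had 492.8, 269.0, 265.7 and 495.9 CPM in iron positive libraries, against 781.9, 441.0, 452.1 and 627.7 CPM in iron negative libraries. For both genes the groups overlapped, tags 3L and 5L were high in both fractions, and tags 3R and 4R were low in both. Without regard to the tag, Cxcr4 had a log2 fold change of -0.35 ± 0.32 (edgeR adjusted p = 0.494) and Ccrl2 of -0.60 ± 0.28 (adjusted p = 0.181).

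Within tags, however, both genes were lower in the iron positive library of all 4 pairs. The ratio of iron positive to iron negative CPM ranged from 0.71 to 0.919 for Cxcr4 and from 0.588 to 0.79 for Ccrl2. With the tag as a block, Cxcr4 fell by 0.33 ± 0.08 on the log2 scale (edgeR adjusted p = 0.0257) and Ccrl2 by 0.62 ± 0.08 (adjusted p = 0.00462). The block brought the count to 5 lower receptors of 7, with 9.39% of all genes lower, and left 2 higher, with 12.8% of all genes higher. Under macrophage scaling with the block, Ccrl2 still passed (-0.42, adjusted p = 0.0123) and Cxcr4 did not (-0.13, adjusted p = 0.36). The spread of the same-tag log2 ratios of Cxcr4 was 0.16 (SD), against an SD of log2 CPM of 0.49 within iron positive and 0.54 within iron negative libraries. For Ccrl2 these SDs were 0.19, 0.51 and 0.40. For Ccr2 and Cx3cr1 the order was different, since the ratios (SD 0.49 and 0.39) spread more than the iron negative libraries (SD 0.11 and 0.05) and much as the iron positive ones did (SD 0.40 for both). With TMM scaling, pairing by tag changed the calls of Cxcr4 and Ccrl2 and of no other receptor tested. With macrophage scaling it changed those of Ccr2, Cx3cr1 and Ccrl2.

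**Figure D2:**
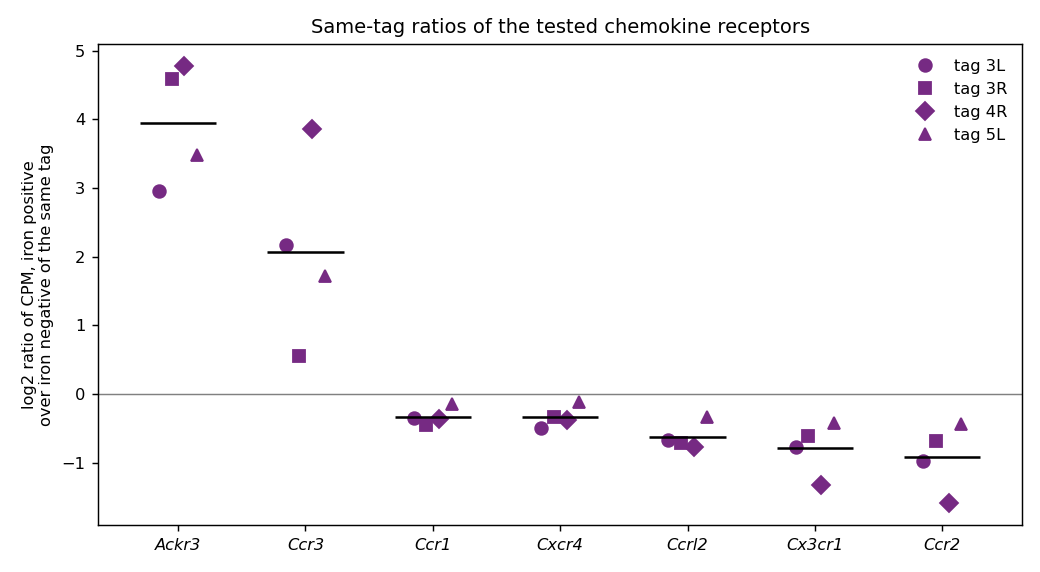
The vertical axis gives the log2 ratio of CPM in the iron positive over the iron negative library of the same tag, for the 7 receptors tested, with symbols for the tag and lines for the mean. All 4 ratios lie above 0 for Ackr3 and Ccr3 and below 0 for the other 5 receptors, and tag 4R is the farthest from 0 for Ackr3, Ccr3, Ccrl2, Cx3cr1 and Ccr2.

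Ccr3, the eotaxin receptor best known from eosinophils, was low in both fractions and higher in the iron positive one. It had 2.39 (3L), 0.86 (3R), 5.19 (4R) and 2.29 (5L) CPM in iron positive libraries, against 0.53, 0.58, 0.36 and 0.70 CPM in iron negative libraries. These values rest on 17 to 119 estimated counts per iron positive library and 8 to 16 per iron negative library. The groups did not overlap, but iron positive 3R lay close to the iron negative values and 4R far above them. The log2 fold change was 2.30 ± 0.52 (edgeR adjusted p = 0.026), and the adjusted p was 0.0587 without iron positive 4R. Tag 4R, which had the highest Ccr3 in the iron positive fraction, had the lowest Ccr2 and Cx3cr1 there. Around the fraction means, Ccr3 ran opposite to Ccr2 (r = -0.81) and Cx3cr1 (r = -0.63) over the 8 libraries.

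Markers of eosinophils, basophils and mast cells were mostly at or near 0. Of 9 genes in that list, 2 had enough counts to be tested. Epx, the eosinophil peroxidase, had no count in any library. Prg2, the eosinophil major basic protein, had 9 counts over the iron positive libraries and 0 over the iron negative ones. Siglecf averaged 0.92 ± 0.50 CPM in iron positive and 1.36 ± 0.31 CPM in iron negative libraries (log2 fold change -0.58, edgeR adjusted p = 0.388). Kit, a mast cell receptor that other cells also express, was higher (3.42, adjusted p = 0.0237), and its highest value, 32.9 CPM, was in iron positive 3R, where Ccr3 was lowest among the iron positive libraries. The list's summed level of 5.23 to 34.4 CPM in iron positive libraries, against 2.17 to 3.31 CPM in iron negative libraries, was mostly Kit in the iron positive libraries. The part of these cells in the Ccr3 result was not tested.

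Ackr3, which binds Cxcl12 and Cxcl11, signals through arrestins and clears Cxcl12 from tissue, had the largest change of the 7 receptors tested. It had 7.18 (3L), 27.0 (3R), 13.5 (4R) and 3.87 (5L) CPM in iron positive libraries, against 0.93, 1.12, 0.49 and 0.35 CPM in iron negative libraries. The lowest iron positive value was above the highest iron negative one, and the iron positive values differed among themselves by more than the Ackr3 levels of the iron negative fraction. Estimated counts were 88 to 536 per iron positive library and 8 to 23 per iron negative library. The log2 fold change was 4.15 ± 0.67 (edgeR adjusted p = 0.0173). Pairing by tag gave 3.99 ± 0.32 (adjusted p = 0.000512), with the narrower error, and macrophage scaling gave 4.47 ± 0.73 (adjusted p = 0.0124). The same-tag ratios ran from 7.73-fold in 3L to 27.4-fold in 4R.

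Ackr3 was highest in the iron positive libraries with the most vascular and stromal marker RNA. All 12 endothelial markers were higher in the iron positive fraction, with a median log2 fold change of 5.04. Of the pericyte and smooth muscle markers 7 of 10 were higher, and of the fibroblast and fibrosarcoma markers 8 of the 11 tested. Over all genes 8.49% were higher. Among iron positive libraries, tag 3R had the highest Ackr3 and also the highest endothelial (1428 CPM) and fibroblast (5814 CPM) sums, and 4R was second in all 3. Around the fraction means, Ackr3 correlated with the fibroblast sum at r = 0.90, with the endothelial sum at 0.81 and with the macrophage sum at -0.74 over 8 libraries, which share tags and scaling. The values were similar with the monocyte sum (0.85), with the sum of eosinophil, basophil and mast cell markers (0.82) and, inversely, with the B cell sum (-0.81). In iron positive 3R the monocyte sum was mostly Ace and Vcan. Tags 3L and 5L did not follow one order, since Ackr3 and the fibroblast sum were lowest in 5L and the endothelial sum in 3L. The part of these cells in the Ackr3 result was not tested.

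**Figure D3:**
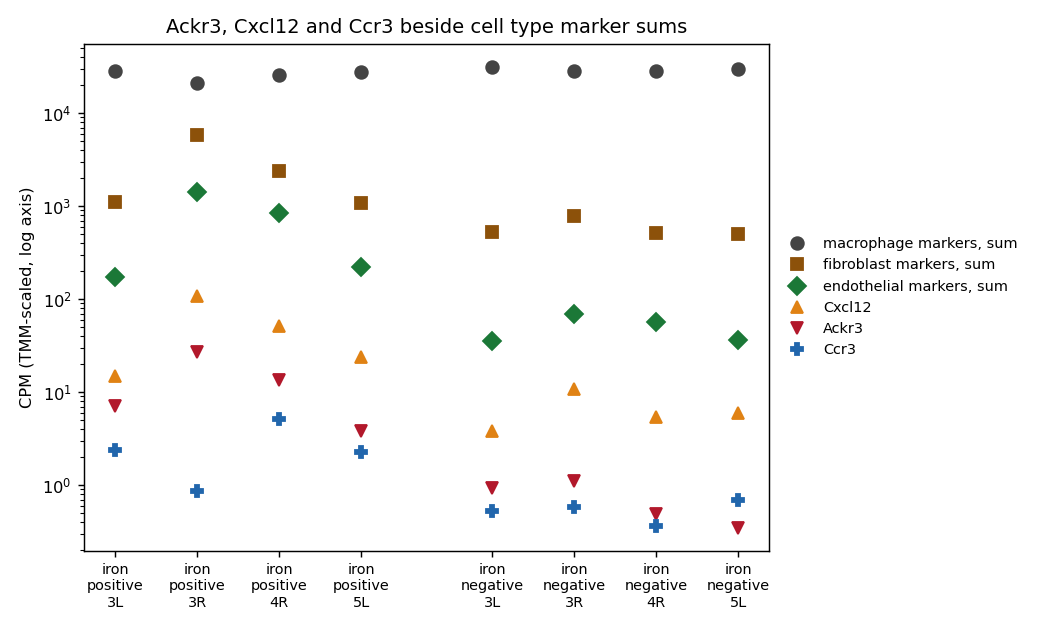
Each library has a column, with the 4 iron positive libraries left of the 4 iron negative ones, and the vertical axis gives TMM-scaled CPM on a log scale. Ackr3, Cxcl12 and the endothelial and fibroblast sums peak in iron positive 3R and are lower in every iron negative library, the macrophage sum has its minimum in iron positive 3R, and Ccr3 peaks in iron positive 4R.

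The remaining receptors, Ackr2 and Cxcr6, were at the limit of detection. Ackr2, which takes up inflammatory CC chemokines and removes them, had 1 (3L), 15 (3R), 14 (4R) and 4 (5L) estimated counts in iron positive libraries, against 2, 1, 6 and 0 in iron negative libraries. Its groups overlapped, and an exact permutation test on CPM gave a two-sided p of 0.2. Cxcr6, the Cxcl16 receptor of T and NKT cells, had 3, 6, 4 and 6 estimated counts in iron positive libraries, against 8, 8, 12 and 7 in iron negative libraries. Its level was 0.15 to 0.30 CPM in iron positive and 0.30 to 0.54 CPM in iron negative libraries. The groups met at 0.30 CPM, and the exact permutation test gave a two-sided p of 0.0286, the smallest that 4 against 4 libraries allow. In a fit of 21853 genes without a filter on low counts, neither passed (edgeR adjusted p = 0.275 for Ackr2 and 0.303 for Cxcr6). A floor of 3 counts corresponded to 0.125 to 0.159 CPM, depending on the library, so several of these values lie at or below it. The T and NK cell markers summed to 22.8 to 31.3 CPM in iron positive libraries and 34.2 to 54.9 CPM in iron negative libraries. Most of both was Cd4, averaging 18.4 and 31.8 CPM. No other gene of the list averaged above 2.52 CPM in either fraction. Cd4 was also the 1 lower gene of the 7 tested (log2 fold change -0.79, edgeR adjusted p = 0.0177), and none of the others passed. Over all genes 5.21% were lower. With the tag as a block 3 of the 7 were lower, where 9.39% of all genes were. Under macrophage scaling none of the 7 passed, and Cd4 had -0.58 (edgeR adjusted p = 0.0858). In that scaling 0.135% of all genes were lower. The part of these cells in the Cxcr6 values was not tested.

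For each of the 7 receptors the sign of the log2 fold change was the same in the other fits that tested it. These fits numbered 17 for Ackr3 and Ccr3 and 18 for the rest. The log2 fold changes ran from 2.45 to 4.47 for Ackr3, 0.74 to 2.59 for Ccr3, -1.0 to -0.67 for Ccr2 and -0.90 to -0.53 for Cx3cr1. The lowest values of Ackr3 and Ccr3 came from the fit on log2(TPM + 1), a different measure. In the other fits their lowest values were 3.50 and 1.76. The range was -0.38 to -0.12 for Ccr1, -0.75 to -0.41 for Ccrl2 and -0.61 to -0.01 for Cxcr4. The Cxcr4 value without iron negative 3L, -0.01 ± 0.26, shows no direction. Whether a receptor passed the threshold varied more. Leaving out any iron negative library removed all 5 calls in edgeR, with adjusted p of 0.052 to 0.063 for Ackr3, 0.0547 to 0.0651 for Ccr2, 0.068 to 0.0787 for Ccr3, 0.0731 to 0.0811 for Cx3cr1 and 0.0749 to 0.0854 for Ccr1. Those edgeR fits passed no gene at all without 3L, 3R or 4R, and 26 higher and 12 lower genes without 5L. At an unadjusted p under 0.05 they had 2 receptors higher and 3 lower, or 4 lower without iron negative 3R. At that p, 2044 to 2145 of all genes were higher and 1452 to 1601 lower. On the same 7 libraries DESeq2 called 2 receptors higher and 3 lower each time. The share over all genes was not counted for those DESeq2 fits, so nothing is read from these calls. On all 8 libraries DESeq2 passed more genes than edgeR, with 1703 higher and 1070 lower against 1133 and 695.

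**Figure D4:**
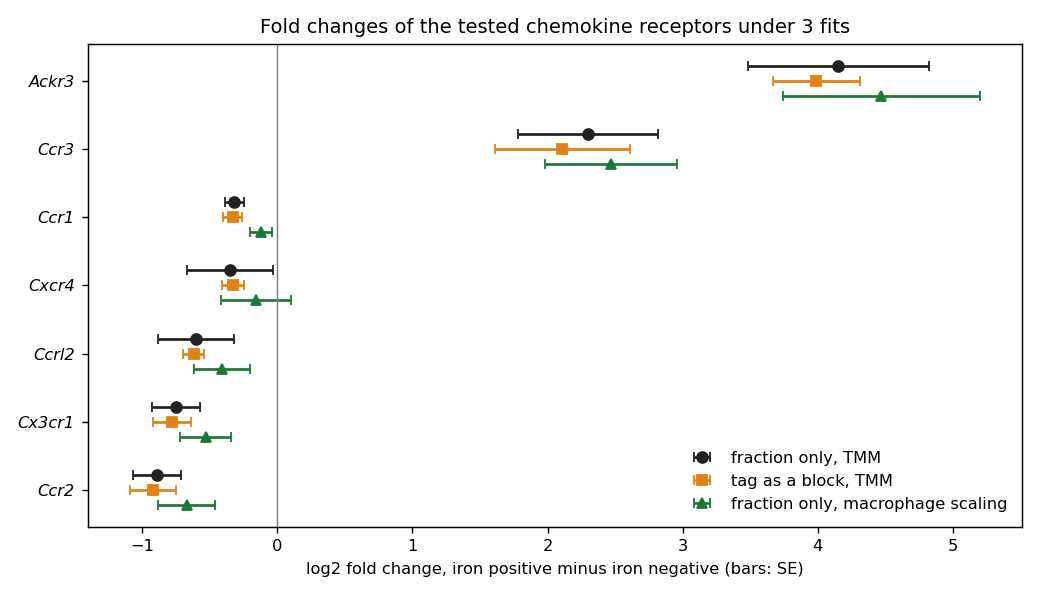
The horizontal axis gives the log2 fold change, iron positive minus iron negative, with bars for 1 SE, for the 7 receptors in fits on the fraction alone (circles), with the tag as a block (squares) and with macrophage scaling (triangles). Ackr3 and Ccr3 lie far to the right of 0 in all 3, the block narrows the bars of Cxcr4 and Ccrl2, and macrophage scaling moves every point to the right.

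The 7 receptors fell into sets that varied together around the fraction means, described here by correlations of log2 CPM over the 8 libraries. Ccr2 varied with Cx3cr1, though among iron positive libraries only. Cxcr4 varied with Ccrl2 (r = 0.89), and Ccr1 varied with Ccrl2 (0.69) and against Ackr3 (-0.80). Ccr1 and Ccrl2 followed the macrophage sum (0.83 and 0.82), and Cxcr4 less closely (0.66). Ccr2 and Cx3cr1 did not (-0.16 and -0.02). By the same measure, among 9870 genes averaging 5 CPM or more, the genes most like Ccrl2 were Osm (0.990), a cytokine, Zc3h12a (0.989), an RNase that degrades inflammatory transcripts, and Ifrd1 (0.986). Those most like Cxcr4 were Rhoa (0.989), Sc5d (0.989) and Msmo1 (0.988), of which Sc5d and Msmo1 encode cholesterol synthesis enzymes. Cx3cr1 was most like Pou2f1 (0.998), Htra3 (0.992) and Ptgs1 (0.990), Ccr2 like Rogdi (0.988), Dock5 (0.984) and Srrm1 (0.983), and Ccr1 like Rgs14 (0.978), Epg5 (0.972) and Vav1 (0.966). Ccr3 was most like Oas3 (0.990), Cenpb (0.988) and Guk1 (0.971), and Ackr3 like Map2k5 (0.984), Ube2h (0.981) and Dap3 (0.981). With 8 points and so many genes, high values of r are common, and these are descriptions only.

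The ligands of these receptors divided between the fractions. Of 19 ligand genes, 17 were tested, 5 rose and 2 fell among iron positive libraries, with a median log2 fold change of 0.46, against -0.006 over all genes. Over all genes 8.49% rose and 5.21% fell. With the tag as a block 6 were higher and 5 lower, where 12.8% and 9.39% of all genes were. With macrophage scaling 6 were higher and neither of the lower ones passed, where 10.8% of all genes were higher and 0.135% lower. For Ackr3, the ligands Cxcl12 and Adm (adrenomedullin, a vascular peptide that Ackr3 scavenges) were both higher. Cxcl12 had 14.8 (3L), 108.9 (3R), 51.7 (4R) and 24.0 (5L) CPM in iron positive libraries, against 3.84, 10.9, 5.37 and 6.00 CPM in iron negative libraries, and a log2 fold change of 2.94 ± 0.64 (edgeR adjusted p = 0.0236). Adm averaged 14.2 ± 10.2 CPM in iron positive and 1.94 ± 0.50 CPM in iron negative libraries (2.87 ± 0.49, adjusted p = 0.0173). Both were highest in iron positive 3R, as Ackr3 was. Cxcl11, an interferon-induced ligand of Ackr3, had a log2 fold change of -0.70 that did not pass (adjusted p = 0.235) except with the block (adjusted p = 0.0349).

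For Cxcr4, the second ligand Mif did not differ detectably, with 155.6 ± 16.6 CPM in iron positive and 158.0 ± 13.8 CPM in iron negative libraries. The difference was -0.02 ± 0.09 on the log2 scale (edgeR adjusted p = 0.902). Cxcl16, the ligand of Cxcr6, was abundant and lower in the iron positive fraction, at 689.0 ± 138.4 CPM, against 1059 ± 142.8 CPM in the iron negative fraction (-0.62 ± 0.16, adjusted p = 0.0389). It did not pass under macrophage scaling (-0.41, adjusted p = 0.11). The Cxcr6 ligand was thus present at 497.6 CPM or more where its receptor was at or below 0.54 CPM in every library.

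For Ccr3, the eotaxin Ccl24 was higher in the iron positive fraction, at 9.63 ± 8.44 CPM, against 1.51 ± 0.42 CPM in the iron negative fraction (2.67 ± 0.67, edgeR adjusted p = 0.0362). Its iron positive values were 20.3 (3L), 2.27 (3R), 12.5 (4R) and 3.48 (5L) CPM, so the library with the lowest Ccr3, 3R, also had the lowest Ccl24. The other eotaxin, Ccl11, was not tested and summed to 185 estimated counts in iron positive libraries and 13 in iron negative libraries, with its highest value in 3R.

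For Ccr1, Ccl6 was higher, at 903.6 ± 641.7 CPM in iron positive and 151.0 ± 25.9 CPM in iron negative libraries (2.58 ± 0.55, edgeR adjusted p = 0.0229). It had 1389 (3L), 225.6 (3R), 1510 (4R) and 489.3 (5L) CPM in the iron positive libraries, all above the highest iron negative value of 167.7 CPM. Ccl9 had a log2 fold change of 0.82 that passed only with macrophage scaling (adjusted p = 0.135 without it and 0.0464 with it). Ccl5, a chemokine made largely by lymphocytes, was lower, at 8.71 ± 1.28 CPM in iron positive and 13.1 ± 1.32 CPM in iron negative libraries (-0.58 ± 0.13, adjusted p = 0.026), and did not pass with macrophage scaling (-0.39, adjusted p = 0.11). Ccl3 did not differ detectably (-0.09 ± 0.26, adjusted p = 0.838). Ccl8, a further CC chemokine of the ligand list, is not assigned here to Ccr1 or to any other single receptor. It averaged 82.8 ± 52.9 CPM in iron positive and 25.2 ± 2.50 CPM in iron negative libraries (1.72 ± 0.43, edgeR adjusted p = 0.0362).

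For Ccr2, none of the ligands Ccl2 (0.46 ± 0.25, edgeR adjusted p = 0.253), Ccl7 (0.48 ± 0.27, adjusted p = 0.268) and Ccl12 (-0.35 ± 0.13, adjusted p = 0.106) passed. Ccl12 was lower with the tag as a block (adjusted p = 0.00561). Ccl2 averaged 251.9 ± 87.4 CPM in iron positive and 183.3 ± 29.7 CPM in iron negative libraries. Cx3cl1, the ligand of Cx3cr1, did not pass on the fraction alone (1.62 ± 0.58, adjusted p = 0.0967) and was higher with the block (1.38, adjusted p = 0.0165). Its highest value, 24.3 CPM, was again in iron positive 3R. The gene of chemerin, Rarres2, was not tested, with 100 estimated counts over the iron positive and 12 over the iron negative libraries.

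**Figure D5:**
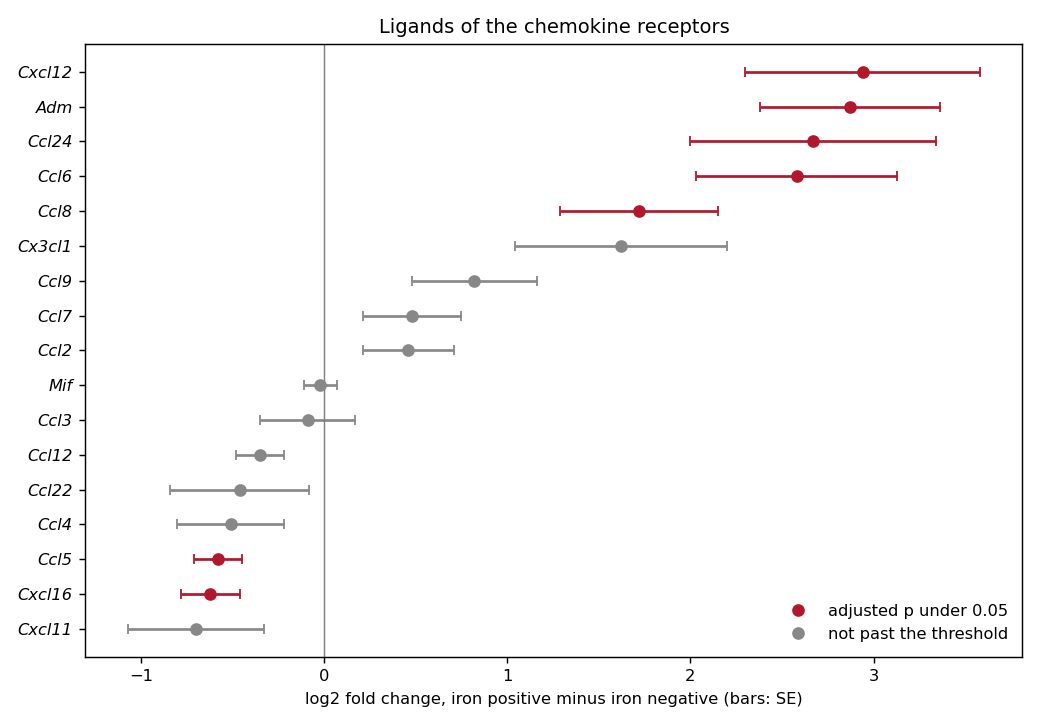
The horizontal axis gives the log2 fold change, iron positive minus iron negative, with bars for 1 SE, for the 17 ligand genes tested. Cxcl12, Adm, Ccl24, Ccl6 and Ccl8 (red, right of 0) were higher and Ccl5 and Cxcl16 (red, left of 0) lower, and the 10 in grey did not pass.

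Genes that relay and end the signal of these receptors were all expressed. Of 26 tested, 2 rose and 8 fell among iron positive libraries, with a median log2 fold change of -0.20. Over all genes 8.49% rose and 5.21% fell, so the rises were near the share over all genes. With the tag as a block 3 were higher and 11 lower, which added Rgs18 to the higher and Rgs1, Rgs2 and Grk2 to the lower genes. Of all genes, 12.8% were higher and 9.39% lower with the block. Under macrophage scaling 3 were higher and the 8 lower ones did not pass, with 10.8% of all genes higher and 0.135% lower. Grk5, a kinase that phosphorylates active receptors, was higher, at 23.8 ± 6.88 CPM in iron positive and 7.18 ± 0.32 CPM in iron negative libraries (1.73 ± 0.20, edgeR adjusted p = 0.0118). Its relative Grk3 went the other way, at 73.4 ± 13.7 CPM in iron positive and 122.5 ± 13.9 CPM in iron negative libraries (-0.74 ± 0.14, adjusted p = 0.0185). The other higher gene was Rgs16, which speeds the inactivation of Gi (2.46, adjusted p = 0.0252). The lower genes included Plcb2, the phospholipase activated by the beta and gamma subunits of Gi (-0.47 ± 0.07, adjusted p = 0.0173), Prex1, an activator of Rac (-0.40 ± 0.08, adjusted p = 0.0202), and Rgs19 (-0.24 ± 0.05, adjusted p = 0.0206). Rgs10, Elmo1, Pik3cg and Rac2 were the other 4 that fell. Gnai2, the main Gi subunit of myeloid cells, did not pass (-0.16 ± 0.07, adjusted p = 0.143), and neither did the arrestin Arrb2 (-0.25 ± 0.08, adjusted p = 0.0647).

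A further 15 chemokine and chemerin receptor genes were mostly low. Of these, 7 were tested and 1 was lower, where 5.21% of all genes were. The other 6 did not pass, and the median log2 fold change of the 7 was -0.21. Cmklr1, the signalling receptor for chemerin, fell by 0.29 ± 0.06 on the log2 scale, with 183.8 ± 12.5 CPM in iron positive and 225.4 ± 7.93 CPM in iron negative libraries (edgeR adjusted p = 0.0236). It did not pass with macrophage scaling (-0.09, adjusted p = 0.497). Cxcr3, the next most abundant, averaged 4.24 ± 0.66 CPM in iron positive and 5.01 ± 0.60 CPM in iron negative libraries (adjusted p = 0.36). Among those with too few counts to be tested, Ackr1, an atypical receptor of venules and red cells, had 47 estimated counts over the iron positive libraries and 1 over the iron negative ones. The chemerin receptor Gpr1 had 43 over the iron positive and 1 over the iron negative libraries, and Ccr8, a receptor of regulatory T cells, had 7 over the iron positive and 29 over the iron negative ones.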

How the data were processed

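Bulk RNA sequencing covered 4 iron positive and 4 iron negative libraries. The submitters' processing notes name kallisto 0.46.2 and the build mm10, and no source used here gives the transcript release. The deposited tables hold unnormalized estimated counts for every transcript, some of them fractional, per the file headers. The deposited TPM values are scaled by effective length and to a common total, per the file headers, and the length columns hold other values in bases. No replicates were pooled.

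Of 119414 transcripts, 116728 matched GENCODE release 21 for mouse by identifier without version. The 2686 unmatched ones, with 0.888% to 0.961% of a library's counts, were left out. Estimated counts were summed per gene and rounded to whole numbers. The sums use no strand, so reads of overlapping antisense genes cannot be told apart. Genes were filtered with filterByExpr, scaled with TMM and tested for the fraction alone by quasi-likelihood F-test (edgeR 4.0.16 under R 4.3.3). p-values were Benjamini-Hochberg adjusted over 13343 genes, with a threshold of 0.05, and the SE is the absolute log2 fold change divided by the square root of F, which is approximate. The 2 untested receptors were compared by exact permutation tests. The floor of 3 counts covers counting error only, while the SD and SE values include the spread between libraries.

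Equal tags in the labels pair the libraries. Deviations from the fraction means correlated at 0.53 (3L), 0.52 (3R), 0.27 (4R) and 0.30 (5L) between same-tag libraries, above the limit of 0.1, and at most at 0.26 between other tags. No replicates agreed within counting noise (chi-square per gene 43.9 to 112 between iron positive and 9.38 to 26.9 between iron negative libraries). Simulated data with known changes were used to test the steps.

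The members, the 3 lists of ligands, signalling genes and further receptors, and the 13 marker lists were chosen with earlier results of these data known. Text values cover every member, up to 5 genes per list with the smallest adjusted p, ligands beside their receptor, and the 3 genes most like each tested member. Csf1r, Lyz2, Cd4, Kit, Siglecf, Epx, Prg2, Ccl8, Cxcr3, Ackr1, Gpr1, Ccr8, Gnai2, Arrb2, Rgs1, Rgs2, Rgs10, Rgs16, Rgs18, Grk2, Vcan, Ace, Ms4a4c, Elmo1, Pik3cg and Rac2 were named after their values were seen. Alternatives were RLE size factors, library totals, macrophage scaling, no filter, a filter of 10 CPM in 4 libraries, DESeq2 1.42.0, limma 3.58.1 with voom and on log2(TPM + 1), the tag as a block, and leaving out each library. Of the other marker lists, monocyte markers (2 of 8 tested higher, 1 lower), dendritic cell markers (2 of 6 higher), neutrophil markers (2 of 4 higher), lymphatic endothelial markers (1 of 3 higher) and skeletal muscle markers (6 of 6 higher) were read beside the receptors. The 2 B cell and 5 red cell markers tested did not pass on the fraction alone, and 4 of the red cell markers were higher with the tag as a block. Over all genes tested, 8.49% were higher and 5.21% lower on the fraction alone, and 12.8% were higher with the block.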

Additional observations from a re-analysis of the deposited data

Results flagged for a closer look

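Ccl5 in the iron negative library 4R had 11.1 CPM, far from the other 3 iron negative libraries at 13.5 to 14.0 CPM. The gap to the nearest library was 0.838 of the group's whole range, above Dixon's critical value for 4 libraries. Chance alone would mark about 5% of groups, and 40 groups of 20 genes were examined. Ccl5 in the iron positive libraries, 7.41 to 10.1 CPM, still lay below this value.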

How the results depend on the processing

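No receptor's log2 fold change changed sign in any alternative, though that of Cxcr4 was -0.01 ± 0.26 without iron negative 3L. The 2 higher receptors were also 2 with RLE size factors, library totals, macrophage scaling, no filter, DESeq2 and the replicate block. They were 0 under the filter of 10 CPM, which neither Ackr3 nor Ccr3 passes, 0 with limma voom (2 at an unadjusted p under 0.05) and 1 on log2(TPM + 1). At an unadjusted p under 0.05, limma voom had 1947 of all genes higher. The 3 lower receptors were 0 with macrophage scaling, 1 with limma voom, 1 on log2(TPM + 1) and 5 with the replicate block. Leaving out single libraries gave 0 to 2 higher and 0 to 3 lower receptors, with 1 higher without iron positive 4R and 0 of either without any 1 iron negative library. Over all genes, 1133 were higher and 695 lower. These counts were 432 and 338 under the filter of 10 CPM, 1703 and 1070 with DESeq2, 189 and 273 with limma voom, 228 and 68 on log2(TPM + 1), 1705 and 1253 with the replicate block, and 2799 and 166 with the block and macrophage scaling. Library totals gave 1172 higher and 362 lower, and macrophage scaling 1440 and 18. Leaving out single libraries gave 0 to 1487 higher and 0 to 979 lower genes. The lowest counts came without an iron negative library (0 higher and 0 lower without 3L, 3R or 4R, and 26 higher and 12 lower without 5L). Without iron positive 4R there were 399 higher and 214 lower. The cause was not tested. Ackr2, Cxcr6 and, in the iron negative fraction, Ccr3 and Ackr3 rest on few counts.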
